A study of Homo sapiens with 7 samples.

Results

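Tight junctions are described here through 10 genes of MDA-MB-231 cells: 7 claudin genes (CLDN1, CLDN3, CLDN4, CLDN7, CLDN11, CLDN12 and CLDN15), the occludin gene OCLN, the scaffold gene TJP1 and the junctional adhesion molecule gene F11R. They were picked by symbol from a table of 57773 genes, with the KD and parent values already known, so the KD against parent values of these 10 genes are a description and no p-value is given for them. MDA-MB-231 is an established triple-negative breast cancer line. The study concerns APE1, a base excision repair enzyme that also binds G-quadruplexes, folded structures of guanine-rich DNA, and it asks how this binding bears on metastasis. RNA-seq was made from 2 libraries of cells labelled KD and 3 libraries of cells labelled parent. The labels do not spell out KD and give the parent cells no treatment. Their protocol, shared by all libraries, describes APE1-knockout cells transduced with a lentiviral doxycycline-inducible vector for wild-type or mutant APE1 and selected with blasticidin. Whether the KD cells carried that vector, received doxycycline or came from 1 clone is not given, nor is whether replicates came from separate cultures. The p-values given for other genes therefore measure only the spread between these libraries, which may be technical.

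Tight junctions seal the space between neighbouring epithelial cells and separate the apical from the basolateral membrane. Claudins are the membrane proteins that build the strands, some acting as seals and some as charge-selective pores. Occludin and the junctional adhesion molecules lie beside them, and the ZO proteins, of which TJP1 encodes ZO-1, tie the strands to actin. Lines of the claudin-low type, to which MDA-MB-231 is assigned, are known for low CLDN3, CLDN4, CLDN7 and E-cadherin and for mesenchymal features.

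The libraries held 14601078 to 18049386 estimated counts. APEX1, the gene for APE1, had 640 and 753 counts in KD libraries 1 and 2, against 1936, 1936 and 2413 counts in parent libraries 1, 2 and 3, so the counts go with the labels. Levels are given as CPM, the count relative to the library total after scaling with TMM factors. The mesenchymal markers VIM, CD44, AXL and CAV1 were well detected, from 384 ± 6.33 CPM for CAV1 in KD to 2527 ± 146 CPM for CD44 in parent. CD44 and AXL were 1.27-fold and 1.25-fold lower in KD (edgeR adjusted p = 0.00951 and 0.0296). VIM and CAV1 were 1.05-fold and 1.08-fold lower (edgeR adjusted p = 0.404 and 0.107). ESR1 was at 0 counts in every library and PGR at no more than 2. ERBB2 averaged 161.3 ± 6.26 CPM in KD and 133.2 ± 11.2 CPM in parent, and the epithelial markers KRT8 and EPCAM were detected in every library. CDH1, the E-cadherin gene, averaged 7.70 ± 1.37 CPM in KD and 3.51 ± 0.43 CPM in parent (SD, n = 2 and 3). Of 8 markers of other cell types, 5 were at 0 in every library: PTPRC (immune), CD3E (T cells), VWF (endothelium), ALB (liver) and INS (beta cells). The other 3 were detected. CD68 (macrophages) averaged 128.9 ± 0.96 CPM in KD and 103.6 ± 12.7 CPM in parent. PDGFRB (pericytes, fibroblasts) averaged 65.7 ± 7.81 CPM in KD and 38.1 ± 6.93 CPM in parent, 1.725-fold higher (edgeR adjusted p = 0.0122). COL1A1 (fibroblasts) averaged 24.7 ± 1.75 CPM in KD and 20.8 ± 4.12 CPM in parent. The part of these 3 genes in the results was not tested. Apart from CDH1, the differences of the marker genes were not followed with libraries left out.

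Promoter sequences of 9 of the 10 members were matched in RefSeq (GRCh38.p14), as windows of 300 bases that run from 250 bases before a transcription start to 50 after it. A pair of motifs was searched on both strands. The first is the E-box CACCTG, which reads CAGGTG on the other strand and is the letter pattern that ZEB and SNAIL repressors are known to bind. The second is 4 runs of GGG or longer with 1 to 7 bases between them, the usual letter pattern for a possible G-quadruplex. The motifs overlapped each other in 0 member windows. The 3 windows in this set carry the G-run motif, in capitals as its C-rich complement. They belong to the member with the widest difference between groups (CLDN11), a claudin-low marker whose groups stood apart (CLDN4) and the member with the highest KD over parent ratio (CLDN15). Each is printed 5′ to 3′ along the gene from 250 bases before the start to 30 after it. The windows are chr3:170418618-170418897 on the plus strand, chr7:73830746-73831025 on the plus strand and chr7:101237773-101238052 on the minus strand.
CLDN11: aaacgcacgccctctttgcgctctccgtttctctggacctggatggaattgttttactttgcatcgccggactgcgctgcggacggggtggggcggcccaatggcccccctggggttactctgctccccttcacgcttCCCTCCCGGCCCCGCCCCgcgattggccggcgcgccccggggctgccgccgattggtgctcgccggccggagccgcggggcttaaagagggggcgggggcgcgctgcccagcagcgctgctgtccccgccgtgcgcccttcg
CLDN4: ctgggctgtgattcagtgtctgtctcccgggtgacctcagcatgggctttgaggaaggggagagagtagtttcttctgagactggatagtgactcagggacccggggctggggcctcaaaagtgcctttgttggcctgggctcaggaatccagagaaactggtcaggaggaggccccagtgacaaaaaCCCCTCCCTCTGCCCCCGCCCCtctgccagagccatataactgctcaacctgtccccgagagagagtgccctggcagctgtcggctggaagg
CLDN15: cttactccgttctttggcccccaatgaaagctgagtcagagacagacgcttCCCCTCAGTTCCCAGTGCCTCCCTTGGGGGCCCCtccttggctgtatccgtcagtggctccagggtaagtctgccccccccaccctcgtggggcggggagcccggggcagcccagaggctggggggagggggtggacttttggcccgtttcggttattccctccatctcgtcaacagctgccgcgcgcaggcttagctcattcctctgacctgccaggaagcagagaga

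The capitals in the next pair of windows mark the E-box, shown because CLDN7 had more copies of it than the other members and because occludin has a copy close to its start. They are chr17:7262449-7262728 on the minus strand, at 1 of 2 annotated CLDN7 starts, and chr5:69492297-69492576 on the plus strand, at 1 of 2 OCLN starts.
CLDN7: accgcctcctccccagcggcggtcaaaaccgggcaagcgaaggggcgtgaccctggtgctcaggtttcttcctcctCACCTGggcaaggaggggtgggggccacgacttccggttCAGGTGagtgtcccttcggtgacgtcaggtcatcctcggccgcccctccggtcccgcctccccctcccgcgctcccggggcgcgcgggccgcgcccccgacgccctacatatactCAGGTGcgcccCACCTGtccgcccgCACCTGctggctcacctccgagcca
OCLN: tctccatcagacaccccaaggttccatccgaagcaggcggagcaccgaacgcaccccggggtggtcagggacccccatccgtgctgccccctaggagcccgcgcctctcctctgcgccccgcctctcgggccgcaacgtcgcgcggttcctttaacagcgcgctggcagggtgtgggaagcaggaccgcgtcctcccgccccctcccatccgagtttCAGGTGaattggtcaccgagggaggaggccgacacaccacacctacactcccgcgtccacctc

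The E-box occurred 5 times in that CLDN7 window and 0 times in the window of the other CLDN7 start. The copies began 174, 135, 20 and 9 bases before the start and 5 bases after it. In the OCLN window shown, the copy began 33 bases before the start, and the window of the other OCLN start held 2 copies. CLDN3 and TJP1 also had a copy, 36 bases after the start in CLDN3 and 88 bases before a start in TJP1. Over all windows 5 of 15 member windows (33.3%) held the E-box, against 20.6% of the 35116 windows in the table and 18.7% of the 14606 windows of tested genes. The G-run motif was found in 8 of 15 member windows, from CLDN4, CLDN7, CLDN11, CLDN15 and TJP1. This was 53.3% of the member windows, against 25% of the windows in the table and 33.9% of those of tested genes. Windows of 1 gene are not independent, and a match describes letters only. The windows of CLDN1 and CLDN12 held neither motif. Both motifs occurred in windows of CLDN7 and TJP1, which were lower in KD. Each motif also occurred in a member that was not lower in KD, the G-run motif in CLDN15 and the E-box in CLDN3. A link between motif and direction was not tested.

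CLDN11 encodes claudin-11, the claudin of myelin sheaths and of the blood-testis barrier. It had 1 and 0 counts in KD libraries 1 and 2, against 163, 163 and 193 counts in parent libraries 1, 2 and 3. The transcript was thus close to undetected in KD, while the 3 parent libraries held nearly the same level, 10.4 to 11.1 CPM. The ratio was 327-fold lower in KD, with a 95% exact interval of 58.4-fold to 12940-fold. That interval covers counting error only and is wide because it rests on 1 KD count. In bulk libraries, fewer cells with a transcript and less transcript in each cell cannot be told apart. The E-box was absent from both CLDN11 windows, and each of them held the G-run motif, as did 33.9% of the windows of tested genes. CLDN1, CLDN12 and OCLN, also lower in KD, had the G-run motif in no window. A link between the motif and the CLDN11 level was not tested.

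CLDN1, CLDN4 and CLDN7 encode barrier-forming claudins of epithelia, and all 3 were lower in KD without overlap between the groups. CLDN1, with counts of 28 and 38 in KD and 100, 81 and 96 in parent, measured 1.90 and 2.44 CPM in KD libraries against 6.39, 5.53 and 5.36 CPM in parent libraries. Its log2 fold change was -1.40 ± 0.19 (SE), the lowest among the members detected in every library. CLDN7 measured 13.3 and 9.68 CPM in KD libraries against 28.9, 23.8 and 22.4 CPM in parent libraries. The KD libraries were apart for CLDN7, but the highest KD value was under the lowest parent value. The log2 fold change of CLDN7 was -1.12 ± 0.17 (SE). CLDN4 measured 44.1 and 39.9 CPM in KD libraries against 73.1, 66.7 and 62.8 CPM in parent libraries. Its log2 fold change was -0.69 ± 0.09 (SE), 0.622 of the parent level. CLDN1 overlaps CLDN16 in the RefSeq annotation, and CLDN7 overlaps ELP5. The use of strand in the counting is not given in the sources used here, so reads of such neighbours cannot be told apart.

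CLDN3 encodes claudin-3, another barrier-forming epithelial claudin and part of the claudin-low definition. It was close to the detection limit, with 23 and 27 counts in KD libraries and 24, 25 and 18 counts in parent libraries. The levels overlapped, at 1.64 ± 0.12 CPM in KD and 1.42 ± 0.37 CPM in parent (SD, n = 2 and 3), and the log2 fold change of 0.23 ± 0.30 (SE) was smaller than its error. A difference of that size was not detectable at this depth.

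CLDN12 and CLDN15 had nearly equal values in the KD libraries. CLDN12 encodes claudin-12, a claudin that lacks the usual binding site for ZO proteins at its end. It measured 34.9 and 34.4 CPM in KD libraries against 43.2, 41.0 and 42.0 CPM in parent libraries. The difference was small and the groups stood apart, with a log2 fold change of -0.28 ± 0.06 (SE). CLDN15 encodes claudin-15, a claudin of the intestine that forms cation-selective pores. It measured 11.24 and 11.02 CPM in KD libraries against 8.94, 7.17 and 5.64 CPM in parent libraries. Both KD values lay above the highest parent value, but the parent libraries were spread over a range wider than the gap between the groups. The log2 fold change of CLDN15 was 0.62 ± 0.19 (SE), the only member above 0 whose groups did not overlap.

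**Figure D1:**
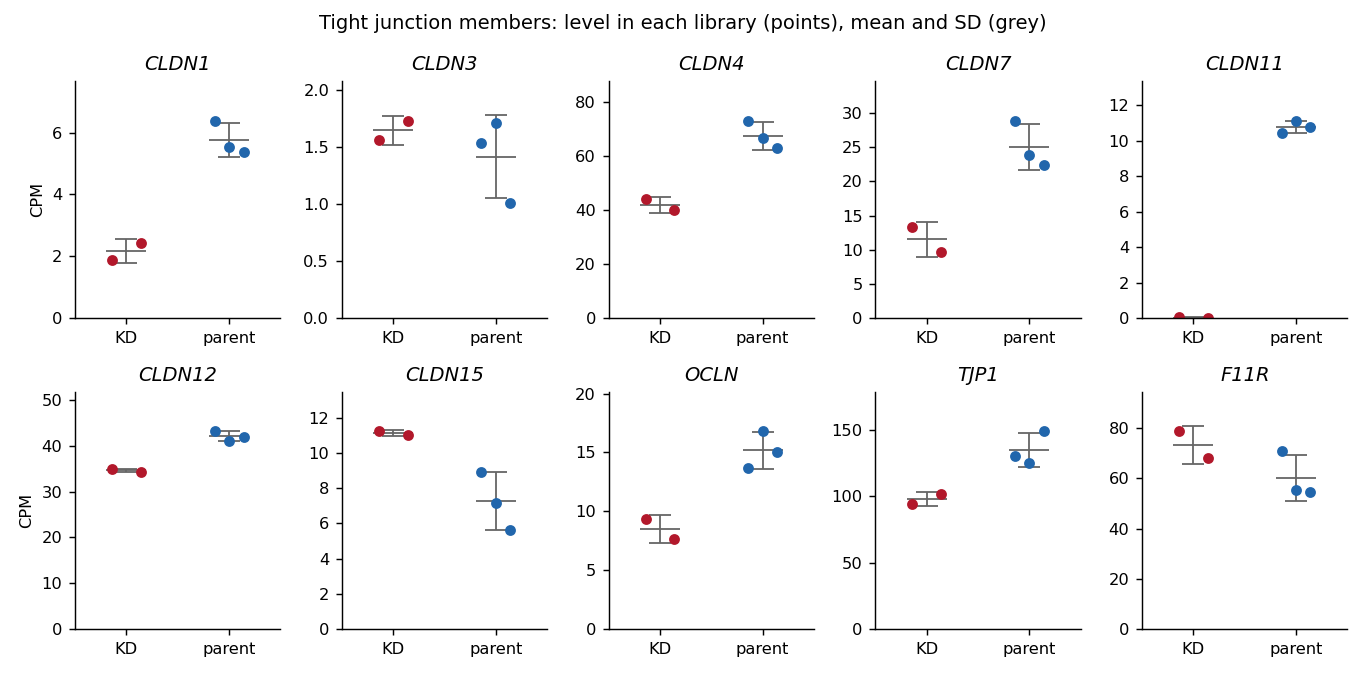
Level of each of the 10 members (vertical axes, CPM, each from 0) in 2 KD libraries (red) and 3 parent libraries (blue), with the group mean and SD in grey. In 7 panels, KD points lie under all parent points, for CLDN15 they lie above, and CLDN3 and F11R overlap.

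Among the other membrane proteins and the scaffold, OCLN and TJP1 were lower in KD without overlap, and F11R overlapped between the groups. OCLN, the occludin gene, measured 9.35 and 7.63 CPM in KD libraries against 13.7, 16.8 and 15.03 CPM in parent libraries. The log2 fold change of OCLN was -0.84 ± 0.14 (SE). The RefSeq table also lists a pseudogene, OCLNP1, and reads shared with it were not measured here. TJP1 measured 94.2 and 101.7 CPM in KD libraries against 130.9, 124.9 and 149 CPM in parent libraries, a log2 fold change of -0.46 ± 0.09 (SE). F11R encodes JAM-A, an immunoglobulin-like adhesion molecule that gathers polarity proteins at the junction. It measured 78.8 and 68.1 CPM in KD libraries against 70.9, 55.3 and 54.5 CPM in parent libraries. Parent library 1 lay between the KD libraries for F11R, so the groups overlapped, and the log2 fold change was 0.29 ± 0.13 (SE).

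Over the 10 members, 7 were lower and 0 higher in KD by the call used for all genes, an adjusted p under 0.05 in the edgeR quasi-likelihood test. In that test 12.4% of the 16198 tested genes were called lower and 9.15% higher. At an unadjusted p under 0.05 there were 7 lower and 1 higher, against 18.8% and 16.5% of all tested genes. DESeq2 called 6 lower and 0 higher, against 8.94% and 5.09%. In 7 members every KD value was under every parent value, and in 1 member it was above, against 26.1% and 25.3% of the tested genes. The median log2 fold change was -0.57 over the members and 0.00085 over all tested genes. Since the members were chosen with these values known, nothing is read from the comparison with the other genes. All 10 members passed the filter on low counts, CLDN11 only through the parent libraries. The authors' deposited table, whose header names no direction, has the same sign for 10 of 10 members, with a log2 fold change of -1.13 for CLDN7 and -0.70 for CLDN4. Its CLDN11 value of -8.36 equals that of the DESeq2 test here, so the shared sign is no independent check.

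The member calls rested in part on single libraries. Without KD library 1 there were 5 members called lower, since TJP1 and CLDN12 lost the call (7.55% of all genes tested there were lower). Without KD library 2, without parent library 2 and with DESeq2, CLDN12 alone lost it. Among all genes tested there, 7.85%, 8.22% and 8.94% were lower. Without parent library 1 the 7 lower calls were joined by 2 higher ones, CLDN15 and F11R, against 12.3% lower and 8.85% higher among all genes tested there. The direction of all 10 members held under each of the 10 alternatives. For CLDN3 this carries little weight, since its log2 fold change came as close to 0 as 0.021. Sizes shifted too, with log2 fold changes from -10.4 to -7.16 for CLDN11, -1.60 to -1.24 for CLDN1 and -1.37 to -0.91 for CLDN7.

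The claudin family as a whole had a different make-up in the groups. Summed over the 7 member claudins, the level was 107.1 and 99.1 CPM in KD libraries against 172.4, 157 and 150 CPM in parent libraries. Over all 23 claudin genes of the table it was 165 and 152.7 CPM in KD libraries against 216.2, 192.4 and 183 CPM in parent libraries, so that the mean in KD was 0.805 of that in parent. Without CLDN4 the sum was 120.9 and 112.8 CPM in KD libraries against 143.1, 125.7 and 120.1 CPM in parent libraries, where the groups overlapped and the ratio of the means was 0.901. The smaller difference over all claudins than over the members went with CLDN2, a claudin that is no member and is known for its cation- and water-permeable pores. CLDN2 held 27.5% and 27.8% of the claudin counts in KD libraries, against 15.1%, 13.8% and 13.0% in parent libraries. CLDN4 held 26.7% and 26.1% in KD libraries, against 33.8%, 34.7% and 34.3% in parent libraries. Each KD share lay above each parent share for CLDN2 and under it for CLDN4. The share of CLDN7 was 8.09% and 6.34% in KD libraries and 12.3% to 13.4% in parent libraries. The CLDN12 share was similar in all libraries, at 21.1% and 22.5% in KD and 20.0% to 23.0% in parent. These are shares of counts and are not corrected for transcript length.

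**Figure D2:**
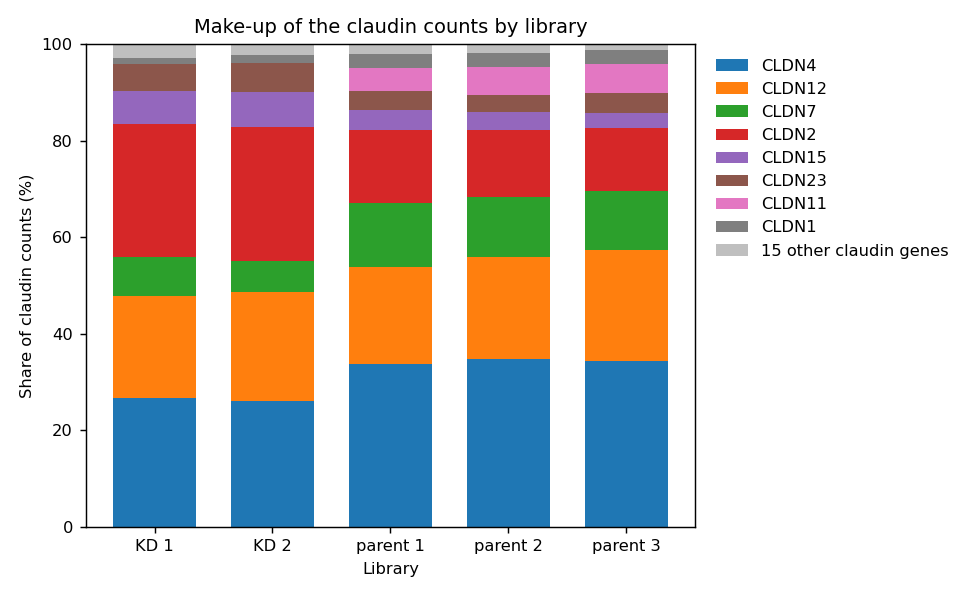
Share of the counts of all 23 claudin genes (vertical axis, percent) held by 8 named claudins and by the 15 others together, in each library (horizontal axis). The CLDN2 share is 27.5% and 27.8% in KD libraries and 13.0% to 15.1% in parent libraries, and CLDN11 is visible only in the parent libraries.

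Of 16 other claudins, 3 passed the filter on low counts, of which 1 rose and 0 fell (0 fell at an unadjusted p under 0.05, and 0 with DESeq2). CLDN2 measured 45.4 and 42.4 CPM in KD libraries against 32.7, 26.6 and 23.9 CPM in parent libraries. The KD values lay above all parent values, and CLDN2 was 1.59-fold higher (edgeR adjusted p = 0.0120). The call on CLDN2 was lost without KD library 1 or parent library 2, within a range of adjusted p = 0.00101 to 0.0741 over all alternatives in edgeR and DESeq2. CLDN23 averaged 9.28 ± 0.11 CPM in KD and 7.61 ± 0.72 CPM in parent cells (edgeR adjusted p = 0.154). A further 6 claudins, among them CLDN6, CLDN8 and CLDN10, were at 0 in all 5 libraries. Of genes with a profile over the 5 libraries like that of CLDN15, CLDN2 was among the 3 nearest, at a root mean square difference of 0.072 on the centred log2(CPM + 0.5) scale, beside CTD-2328D6.1 (0.042) and AC093627.7 (0.062). For CLDN1, the member with the lowest fold among those detected in every library, the nearest profiles were those of CA13 (0.052), AREG (0.053), the growth factor amphiregulin, and KCNMB4 (0.060). With 5 libraries in 2 groups, such likeness mostly reflects a similar fold.

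Across the whole list of 57 other tight junction genes, 38 were tested, and 12 fell while 5 rose in KD (edgeR adjusted p under 0.05, DESeq2 9 and 4). This was 31.6% lower and 13.2% higher, against 12.4% and 9.15% of all tested genes, with the median at -0.18 on the log2 scale. Since the lists were chosen with earlier results of these data known, nothing is read from this comparison with all genes. The lower count was 6 without KD library 1 and 7 without KD library 2, against 7.55% and 7.85% of all genes tested there. The higher count was 2 without KD library 1, and 3 without KD library 2 or without parent library 2. Among all genes tested in these 3 settings, 3.29%, 4.49% and 4.42% were higher.

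The angulin genes ILDR2 and LSR fell, MARVELD2 did not pass the test, and among adhesion molecules CXADR and ESAM fell while CLMP rose. Of 3 tested MARVEL and angulin genes, 2 fell and 0 rose (0 rose at an unadjusted p under 0.05, and 0 with DESeq2), with a median of -0.35 on the log2 scale. ILDR2, an angulin that marks contacts of 3 cells, measured 4.13 and 6.09 CPM in KD libraries against 29.6, 29.6 and 31.5 CPM in parent libraries. It was 5.89-fold lower in KD (edgeR adjusted p = 0.000118), far outside the spread of either group. LSR, another angulin, was 1.27-fold lower (edgeR adjusted p = 0.0135), a call lost without KD library 1, within a range of 0.00364 to 0.0787. MARVELD2, the gene for tricellulin, averaged 10.9 ± 0.70 CPM in KD and 8.16 ± 2.58 CPM in parent cells (edgeR adjusted p = 0.302). Of 4 tested relatives of JAM-A, 2 fell and 1 rose, with a median of -0.70. CXADR, the coxsackie and adenovirus receptor of epithelial junctions, measured 7.58 and 7.12 CPM in KD libraries against 18.8, 18.2 and 20.7 CPM in parent libraries. It was 2.62-fold lower (edgeR adjusted p = 0.000293), and ESAM, the endothelial cell-selective adhesion molecule, was 2.96-fold lower (edgeR adjusted p = 0.000671). CLMP, a CXADR-like protein, moved the other way. It measured 243.6 and 232.4 CPM in KD libraries against 108.1, 108.4 and 113.9 CPM in parent libraries, 2.16-fold higher (edgeR adjusted p = 4.4e-05). JAM3 averaged 1.22 ± 0.19 CPM in KD and 1.22 ± 0.40 CPM in parent cells (edgeR adjusted p = 0.980).

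Scaffold proteins tie the strands to the actin cytoskeleton. Of 11 tested scaffold genes, 4 fell and 1 rose, with a median log2 fold change of -0.31. INADL, which encodes the multi-PDZ protein PATJ, was 2.30-fold lower, at 14.7 ± 0.15 CPM in KD and 33.9 ± 5.09 CPM in parent cells (edgeR adjusted p = 0.00127). TJP3, a relative of TJP1, stood at 1.15 ± 0.10 CPM in KD and 1.40 ± 0.98 CPM in parent cells (edgeR adjusted p = 0.784). The membrane-associated guanylate kinases MAGI1 and MAGI3 were 1.68-fold and 1.49-fold lower (edgeR adjusted p = 0.00051 and 0.00462). AMOTL1, an angiomotin relative, was 1.29-fold lower (edgeR adjusted p = 0.00719, lost without KD library 1 or KD library 2, range 3.4e-05 to 0.0621). CGNL1, the gene for paracingulin, was 1.75-fold higher (edgeR adjusted p = 0.0103, lost without KD library 1 or KD library 2, range 0.00174 to 0.0560). The related cingulin gene CGN averaged 2.41 ± 0.14 CPM in KD and 3.16 ± 0.47 CPM in parent cells (edgeR adjusted p = 0.221). AMOTL2 averaged 156.8 ± 5.60 CPM in KD and 161.6 ± 9.17 CPM in parent cells (edgeR adjusted p = 0.664).

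Polarity proteins place the junction below the apical membrane. Of 9 tested polarity genes, 1 fell and 1 rose, and DESeq2 called 0 in either direction, while 5 were lower and 1 higher at an unadjusted p under 0.05 in edgeR. The median over the polarity genes was -0.24 on the log2 scale. PARD6A was 1.92-fold lower (edgeR adjusted p = 0.0326) and the atypical protein kinase C gene PRKCZ 1.26-fold higher (edgeR adjusted p = 0.0262). Without KD library 1, KD library 2, parent library 2 or parent library 3 neither call was made, within ranges of 0.0324 to 0.167 for PARD6A and 0.0116 to 0.131 for PRKCZ. PRKCI, the other atypical kinase gene, averaged 102 ± 3.78 CPM in KD and 100.3 ± 3.53 CPM in parent cells (edgeR adjusted p = 0.808). Of 8 plaque regulators 3 fell and 1 rose, around a median of 0.02. RAB13, a small GTPase of junction traffic, was 1.48-fold higher, at 140.3 ± 2.00 CPM in KD and 95.1 ± 4.38 CPM in parent cells (edgeR adjusted p = 0.000864). YBX3 (ZONAB), a transcription factor that ZO-1 binds, VASP and ARHGEF11 were 1.13-fold to 1.18-fold lower (edgeR adjusted p = 0.0458, 0.0439 and 0.0498). All 3 calls were lost when any single library was left out, with library totals alone and with no filter on low counts, and those of VASP and ARHGEF11 also with the DESeq2 test, within ranges of 0.0289 to 0.231, 0.0403 to 0.155 and 0.0469 to 0.222. SYMPK averaged 176.2 ± 8.76 CPM in KD and 166.7 ± 7.39 CPM in parent cells (edgeR adjusted p = 0.379).

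**Figure D3:**
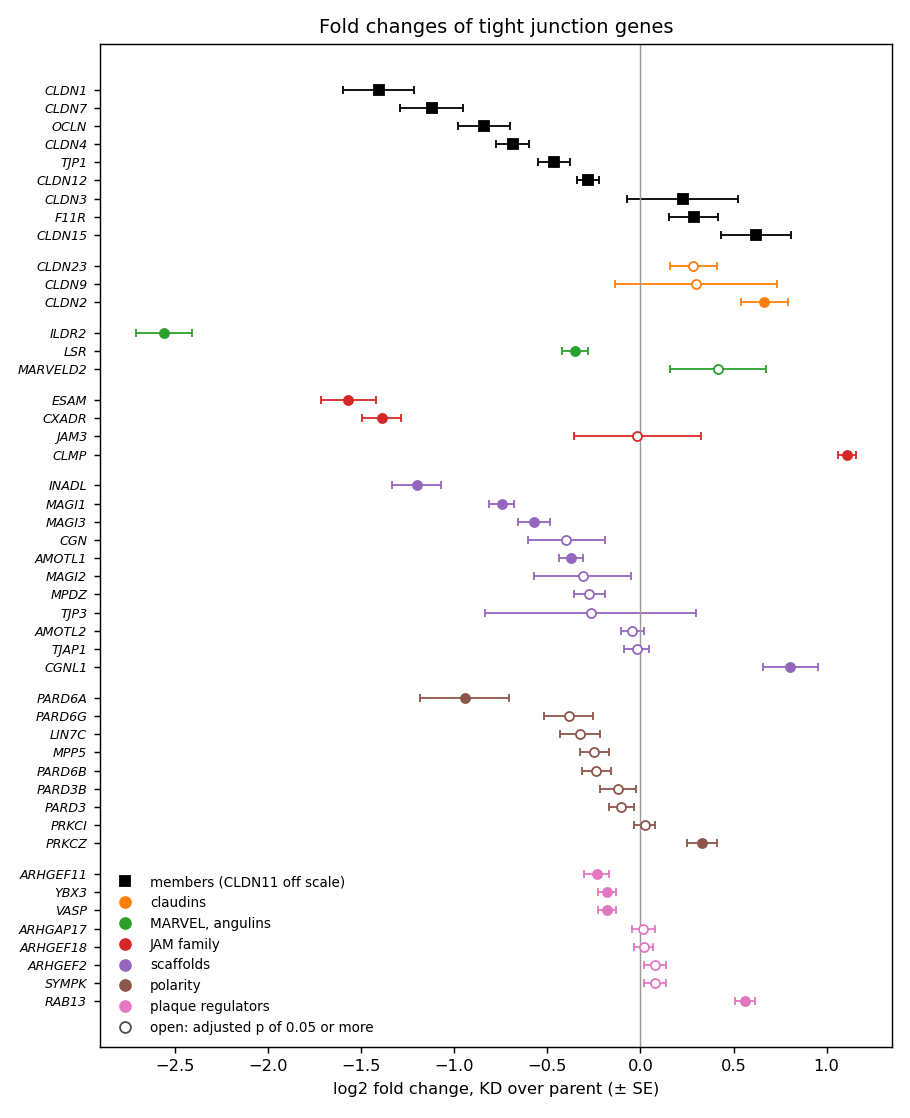
Log2 fold change of KD over parent (horizontal axis, points with SE bars) for 9 members (black squares, CLDN11 off the scale) and the 38 other tested tight junction genes coloured by list, with open circles for an edgeR adjusted p of 0.05 or more. ILDR2 at -2.56 lies furthest left and CLMP at 1.11 furthest right.

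The transcription factors known to set junction genes moved both ways. Of 6 tested, 1 fell and 3 rose, with a median of 0.42 on the log2 scale. Among all tested genes 12.4% were called lower and 9.15% higher. This list too was chosen with earlier results known, so nothing is read from that comparison. ZEB1, a repressor that binds the E-box and keeps epithelial genes low, measured 43.5 and 41.2 CPM in KD libraries against 58.6, 58.2 and 58.9 CPM in parent libraries. It was 1.38-fold lower (edgeR adjusted p = 0.00305). ZEB2 lay the other way without overlap and was not called, at 21.5 ± 1.3 CPM in KD and 17.9 ± 0.33 CPM in parent cells (edgeR adjusted p = 0.0543). SNAI1, another E-box repressor, was 1.55-fold higher, at 23.2 ± 4.53 CPM in KD and 14.98 ± 0.31 CPM in parent cells (edgeR adjusted p = 0.0135, lost without KD library 1 or parent library 2, range 0.006 to 0.0669). SNAI2 averaged 33.6 ± 1.68 CPM in KD and 30.2 ± 3.80 CPM in parent cells (edgeR adjusted p = 0.359). ELF3 and KLF5, transcription factors of epithelia, were both higher in KD. ELF3 measured 26.3 and 22.3 CPM in KD libraries against 9.01, 7.79 and 6.54 CPM in parent libraries, and KLF5 was 1.498-fold higher at 62.8 ± 3.14 CPM in KD and 41.9 ± 2.18 CPM in parent cells (edgeR adjusted p = 0.000575 and 0.00226). GRHL2 and TWIST1 were at 0 in every library.

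The adherens junction lies next to the tight junction and shares adaptor proteins with it. Of 10 tested genes of the adherens junction, 4 fell and 3 rose, with a median of -0.19 on the log2 scale. Among all tested genes 12.4% were called lower and 9.15% higher, and nothing is read from this comparison either. CDH1 was 2.19-fold higher, with 8.67 and 6.73 CPM in KD libraries against 3.77, 3.76 and 3.02 CPM in parent libraries (edgeR adjusted p = 0.00587). JUP, the gene for plakoglobin, was 1.69-fold lower (edgeR adjusted p = 0.0055). MLLT4, the gene for afadin, which links nectins and ZO-1 to actin, was 1.48-fold lower, at 141.2 ± 1.83 CPM in KD and 209.2 ± 19.5 CPM in parent cells (edgeR adjusted p = 0.00369). The catenin genes CTNNA1 and CTNNB1 were 1.18-fold lower and 1.14-fold higher (edgeR adjusted p = 0.0117 and 0.0327). The nectin genes PVRL3 and PVRL1 were 1.21-fold lower and 1.28-fold higher (edgeR adjusted p = 0.0450 and 0.0272). The CTNNA1 call was lost without KD library 1 (range 2.0e-06 to 0.0655). The PVRL1 call was lost without KD library 1, KD library 2 or parent library 2, with no filter on low counts and with the DESeq2 test (range 0.0191 to 0.157). Those of CTNNB1 and PVRL3 were lost when any single library was left out and with no filter on low counts, and that of PVRL3 also with the DESeq2 test (ranges 0.00199 to 0.178 and 0.0418 to 0.235). CTNND1 averaged 238.9 ± 15.2 CPM in KD and 262.1 ± 12.8 CPM in parent cells (edgeR adjusted p = 0.181).

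**Figure D4:**
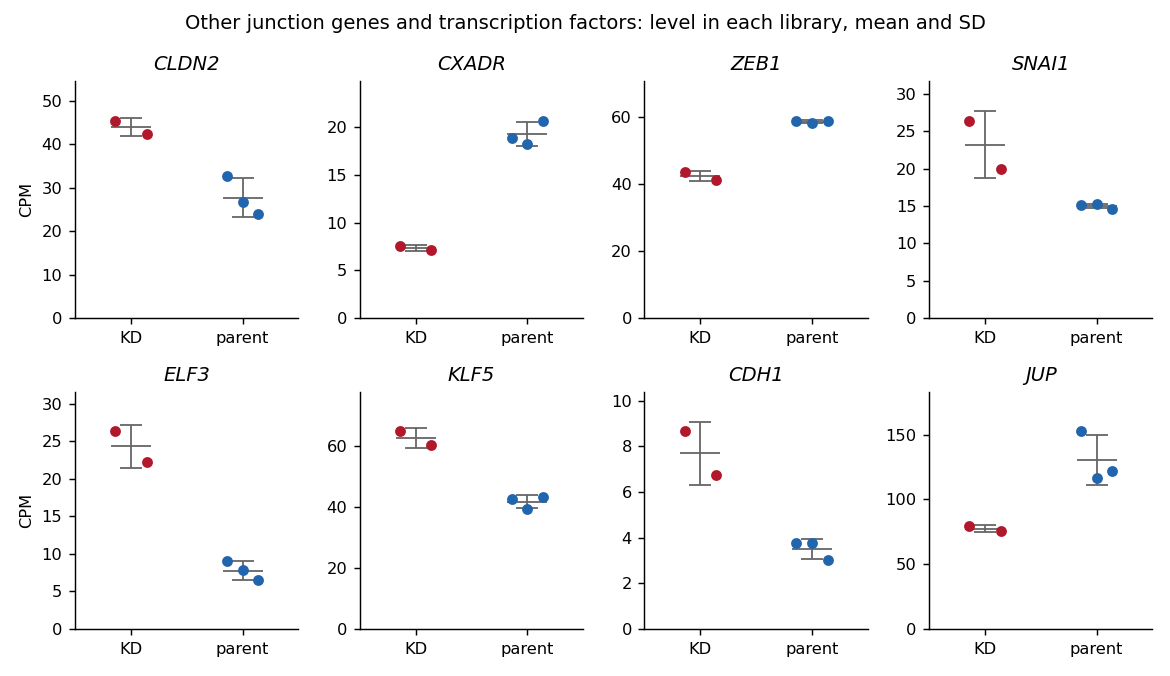
Level (vertical axes, CPM, each from 0) of 8 junction genes and transcription factors that are no members, in 2 KD libraries (red) and 3 parent libraries (blue), with the group mean and SD in grey. CLDN2, SNAI1, ELF3, KLF5 and CDH1 lie higher in KD, and CXADR, ZEB1 and JUP lower, with no overlap in any panel.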

How the data were processed

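RNA-seq of 2 KD and 3 parent libraries was analysed; the 2 chromatin immunoprecipitation samples and the transcript table were not used here. The authors deposited a gene table of expected counts in whole numbers and a table of their own comparison, which per the file headers holds a mean signal of normalised counts and a log2 fold change. STAR, DESeq2 and hg19 are named in the submitters' processing notes, without versions; no source used here gives the counting tool or the annotation. Of 57773 genes, 16198 passed filterByExpr (minimum count 10, minimum total 15). They were scaled with TMM and tested in edgeR 4.0.16 (R 4.3.3, quasi-likelihood), group as the only term, with Benjamini-Hochberg adjustment over all 16198 genes, threshold 0.05 and 3 residual degrees of freedom. Standard errors are the log2 fold change divided by the root of F. DESeq2 1.42.0 was an alternative. The code was tested on simulated KD against parent counts over 15845 genes, with 50 genes changed at each fold. There 56% of 1.5-fold and 96% of 4-fold changes were recovered. Of the calls 13.4% were false, a share above the threshold of 0.05. A smaller share of genes was changed there than was called in the data, so these rates need not hold for the data. Replicates differed by more than sampling noise (chi-square per degree of freedom of at least 3.96).

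The members and lists were chosen with earlier results of these data known. Genes outside the members are named when called in a list, together with the most abundant uncalled gene of each list. TJP3, CGN, ZEB2, CLDN6, CLDN8, CLDN10, GRHL2, TWIST1 and the genes without counts were added after their values were seen. A further gene of the lists is not reported here. Promoter windows are from RefSeq, GRCh38.p14.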

Additional observations from a re-analysis of the deposited data

How the results depend on the processing

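Leaving out 1 library at a time gave 1823 to 3383 called genes, against 3485 with all libraries, and among the other tight junction genes 6 to 10 lower calls and 2 to 5 higher ones, against 12 and 5. The counts were 1823, 6 and 2 without KD library 1, 2076, 7 and 3 without KD library 2, and 2029, 8 and 3 without parent library 2. The size factors of DESeq2, library totals alone, no filter on low counts and the DESeq2 test gave 3481, 3540, 2762 and 2707 called genes, with 9 to 12 lower and 4 or 5 higher calls among the other tight junction genes. Under these alternatives no member, nor APEX1 or a called gene of the junction and transcription factor lists, changed direction. With the replicate number as a block, 3940 genes were called, with 9 lower and 5 higher among the other tight junction genes and 7 lower among the members. The labels give the numbers no meaning. Deviations from the group means correlated at 0.116 between KD and parent libraries 1 and at -0.00303 between KD and parent libraries 2. Among pairs with different numbers, KD library 2 and parent library 3 were at 0.121, and KD library 1 and parent library 3 at -0.121. With 2 KD libraries, the deviations of the KD libraries are mirror images. The numbers were not taken to pair the libraries. Depth limits CLDN3, with no more than 27 counts in a library, and CLDN11 in KD; intervals cover counting error only.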

Other observations

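CLDN14, CLDN16 and CLDN18, which were below the filter on low counts, had counts only in the libraries numbered 1. CLDN16 had 11 counts in KD library 1 and 4 in parent library 1, CLDN14 had 3 and 6, and CLDN18 had 3 and 4, while all 3 genes were at 0 in KD library 2 and in parent libraries 2 and 3. Over the whole table, 57 genes had at least 3 counts in both KD library 1 and parent library 1 and 0 elsewhere, and 39 genes had that pattern for KD library 2 and parent library 2. Pairs of libraries with different numbers were not counted, so these counts do not show whether the library number matters. The 3 claudin genes were noticed after their values were seen, and the cause was not tested.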
